A study of Rorippa islandica and Rorippa pyrenaica with 24 samples.

Results

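Young leaves of *R. stylosa* were compared after 48 h of submergence with leaves of control plants kept in air for the same time, as 3 RNA-seq libraries per group. These 6 libraries were selected by the column names of the count table, out of the 24 libraries of the series, which also holds *R. stylosa* at 24 h and *R. islandica* at 24 and 48 h. The plants were adult, grown in short days on soil, and were submerged in transparent boxes of tap water in a day-night rhythm, while the controls stood in empty boxes. According to the study's methods, *R. stylosa* (listed by its synonym *R. pyrenaica* in the sample records) came from a botanical garden and was propagated vegetatively, independently for each replicate. No allele or other agent was named for either group. How many plants went into a library is not given in the sources used here, so the p-values measure the spread between these libraries. The reads were assigned to the transcripts of *R. islandica*, so a gene of *R. stylosa* without a close counterpart there was not measured.

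A submerged leaf exchanges gas with the water around it instead of with air, which restricts its respiration and photosynthesis and traps the ethylene it makes. Plants are known to respond by inducing fermentation and other genes of the low-oxygen response and by lowering costly processes such as growth, and photosynthesis in submerged leaves depends on the light that reaches them and on inorganic carbon in the water. Tolerance of these conditions varies between related species, which was the reason given for sequencing the sensitive *R. stylosa* beside the tolerant *R. islandica*. The count table names genes by *R. islandica* identifiers and by orthogroup, a set of genes inferred to descend from 1 ancestral gene. It pairs none with a gene name or function, so genes are given below by identifier without a role, and neither the leaf identity of the samples nor the low-oxygen genes could be checked against known markers.

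After 48 h, submergence had changed the leaf transcriptome broadly and in both directions. Of 30646 genes in the table, 24147 had a count in at least 1 of the 6 libraries and 19886 passed the filter on low counts. Of these, 2079 genes were upregulated and 1841 were downregulated, in edgeR's quasi-likelihood framework against a log2 fold change of 1 at an adjusted p under 0.05. The upregulated genes made up 10.5% of the genes tested and the downregulated genes 9.26%, a ratio of 1.13 to 1. This balance depended on the scaling between libraries. With total counts alone in place of TMM scaling, an alternative chosen after seeing the data, the median log2 fold change of all genes moved up by 0.30, and the calls became 2857 up and 1275 down, or 69.1% up against 53% with TMM. All changes below are therefore relative to the TMM scale, on which the median gene had a log2 fold change of 0.01.

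Smaller changes were common. Tested against no change instead of against the threshold, 6761 genes were higher and 6506 lower, together 66.7% of the genes tested. In 36.2% of the genes tested all 3 submerged libraries lay above all 3 controls, and in 34.9% all 3 lay below. The groups did not overlap in 2078 of the 2079 upregulated and in all 1841 downregulated genes. Conversely, 9214 genes (46.3%) had a 95% interval of the log2 fold change that lay wholly between -1 and 1, which corresponds to 2-fold. A further 6752 genes were neither called nor bounded in this way. Because these are bulk leaves, fewer cells of a type and less RNA per cell cannot be told apart.

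The sizes of the changes reached further upwards than downwards at the extremes. Over all genes tested, the central 50% of log2 fold changes lay between -0.65 and 0.65, the central 80% between -1.40 and 1.55, and the central 98% between -4.28 and 5.24. The median change of the upregulated genes was 2.39 on the log2 scale and that of the downregulated genes was -2.18. The smallest change that was called was 1.15 up and -1.20 down. Of 6550 genes with an estimate beyond 1 or -1, 2630 were not called.

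Large changes made up a bigger part of the upregulated than of the downregulated genes. At least 4-fold changes were found in 1313 upregulated genes (63.2%) and 1053 downregulated genes (57.2%). The corresponding numbers were 394 (19%) and 244 (13.3%) at 16-fold and 131 (6.3%) and 70 (3.8%) at 64-fold. The shares of each size were not tested, and fitted changes of genes with almost no counts in 1 group depend on the fit's prior.

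**Figure D1:**
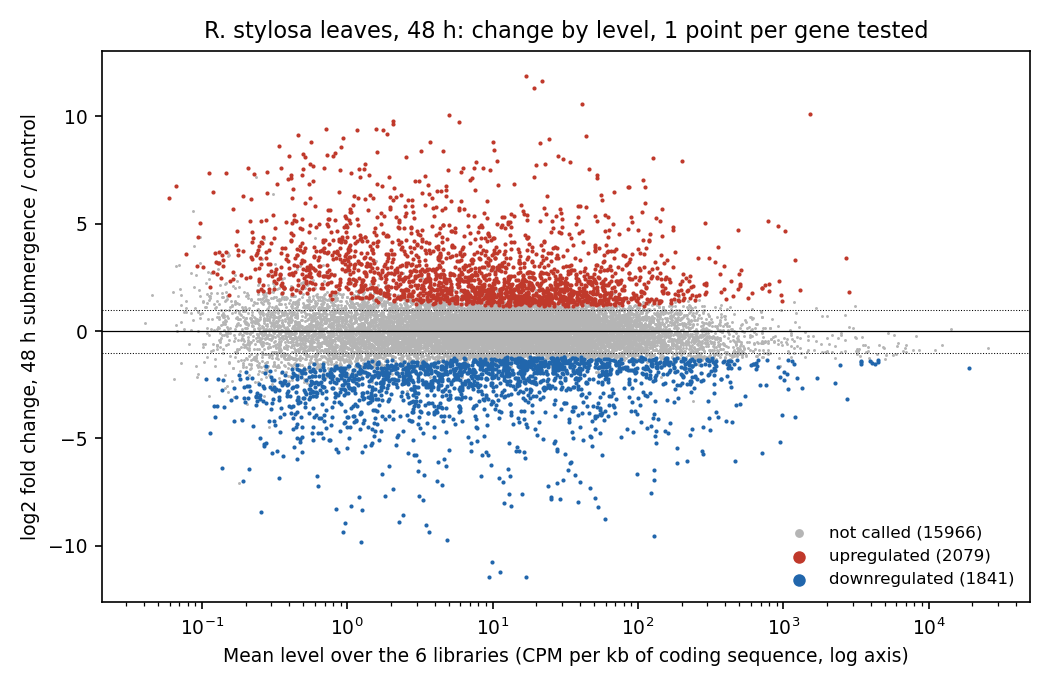
Log2 fold change of 48 h submergence over control (y axis) against the mean level over the 6 libraries in CPM per kb of coding sequence (x axis, log scale), 1 point per gene tested. The 2079 upregulated genes (red) and 1841 downregulated genes (blue) lie at every level, and the dotted lines mark changes of 2-fold.

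The libraries differed in ways that bear on single genes. The 3 controls held 37095205, 37132277 and 39080005 counts and the 3 submerged libraries 27419338, 24649727 and 30285233, and the submerged median was 0.738 of the control median. Between replicates the median absolute difference per gene was 0.170 to 0.212 on the log2 scale among controls and 0.174 to 0.225 among submerged libraries, against 0.632 to 0.720 between a control and a submerged library. Differences above 2-fold were seen in 3.79 to 5.43% of genes between controls, in 4.31 to 6.09% between submerged libraries and in 31.6 to 36.6% across the groups. The biological coefficient of variation was 0.166. No 2 libraries were the same library deposited again, since chi-square per degree of freedom between replicates was 18 or more, where sampling alone gives about 1.

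Control replicate 1 stood apart from the other controls in its most abundant genes. Chi-square per degree of freedom was 153 and 149 for its pairs, against 31.3 for the other control pair. In this library 222 genes were more than 2-fold above both other controls, and they held 11.3% of its counts, against 1.96% in replicate 2, 2.44% in replicate 3 and 1.05 to 4.12% over the 11 other *R. stylosa* libraries. Of these 222 genes, 16 were called up and 13 down, where 10.5% and 9.26% of all tested genes were. The top gene, Roisl.0214s0332 (OG0011124), was at 58620, 9133 and 12895 CPM in the controls and at 16748, 16708 and 17823 CPM after submergence. Its groups overlapped and its log2 fold change of -0.65 was not different from 0 (adjusted p = 0.367 by edgeR's quasi-likelihood test), and without control replicate 1 the estimate was 0.63. The direction also turned in 3 other abundant genes chosen after their values were seen. These were Roisl.0209s0788 (-0.99 with this library and 0.19 without), Roisl.0059s0076 (-0.91 and 0.49) and Roisl.0059s0081 (-0.88 and 0.47), none of which was called. Without control replicate 1, 1828 genes were upregulated, and 1779 up and 1588 down calls were shared with the full set, while 300 up and 253 down calls were lost and 49 and 35 were gained. Leaving out any library also makes its group smaller, and the down calls were fewest, at 1532, without submergence replicate 1. How much of the loss came from the profile of control replicate 1 was not tested.

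Read as shares of the libraries, the DEGs exchanged places. The upregulated genes together held 1.93, 2.28 and 2.18% of the counts of tested genes in the controls and 11.8, 11.9 and 12.1% after submergence. The downregulated genes held 16.4, 17.9 and 18.1% in the controls and 5.19, 5.87 and 5.32% after submergence. Neither set overlapped between the groups, which is a description of the calls and not a test. The genes that were not called held 79.7 to 81.7% of the counts in controls and 82.2 to 83% after submergence. The abundant end of the transcriptome was also flatter under water: the top 100 genes of each library took 37.3, 31.9 and 33.4% of the counts in controls and 24.2, 26.7 and 24.2% in submerged leaves.

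**Figure D2:**
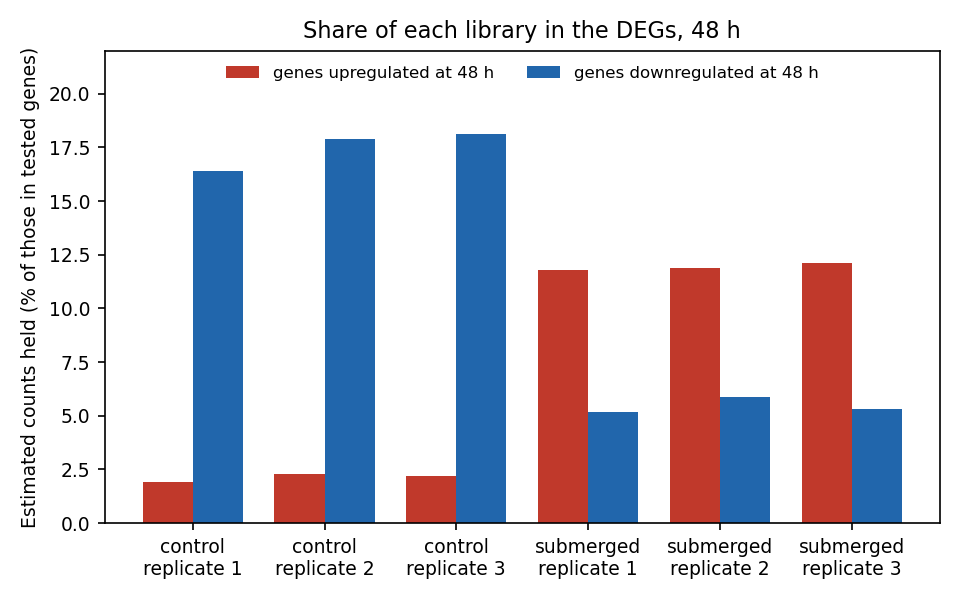
Share of the estimated counts of tested genes (y axis, %) held by the genes upregulated (red) and downregulated (blue) at 48 h in each of the 6 libraries (x axis). Upregulated genes go from 1.93 to 2.28% in controls to 11.8 to 12.1% in submerged leaves, and downregulated genes from 16.4 to 18.1% to 5.19 to 5.87%.

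Replicates varied to a similar degree in both groups over all genes, with a median SD of log2 CPM of 0.163 in controls and 0.172 in submerged leaves, and 52.5% of genes were wider after submergence. Among the downregulated genes, however, the median SD was 0.224 in controls and 0.312 after submergence, and 66.3% were wider after submergence. Among the upregulated genes it was 0.269 in controls and 0.236 after submergence. Fewer counts accompany the lower level in each case, and their part in the wider spread was not tested. The 586 genes of the highest abundance class, described next, were also wider after submergence in 68.1% of cases, with median SDs of 0.119 and 0.181.

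Genes were then grouped by abundance, as the mean over the 6 libraries in CPM per kb of coding sequence, with class limits at 1, 4, 16 and 64 CPM per kb and at 4 times the last of these. In the main fit, upregulation was most frequent below 4 CPM per kb and downregulation in the highest class. Neither ranking of the classes was stable, since they changed with the scaling or with single libraries, as given below. Under 1 CPM per kb, 12.3% of 2420 genes were upregulated and 11.8% downregulated, and between 1 and 4 the shares were 12.5% and 11.9% of 3360 genes. In the middle classes the calls were fewest, with 9.89% up and 7.22% down among 6065 genes at 4 to 16 and 9.84% and 7.36% among 5418 genes at 16 to 64. In the second highest class, from 64 upwards, the order turned, with 9.13% up and 10.8% down among 2037 genes, but with total counts alone it did not (13.9% and 6.39%). These shares were not tested against each other.

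Of the 586 genes in the highest class, 42 (7.17%) were upregulated and 97 (16.6%) were downregulated. The median log2 fold change of this class was -0.60, against -0.14 for the class below it and 0.01 over all genes. The excess of downregulated genes in this class did not hold under every scaling. With total counts alone, 9.91% of the class were up and 9.39% down, although both scalings gave the lowest share of upregulated genes in this class. The share down was then 9.24% in the class under 1 CPM per kb, close to that of the highest class. Leaving out each of the 6 libraries in turn gave 13.8 to 21.5% down and 5.45 to 8.62% up. In the class under 1 CPM per kb, 8.15% were up without control replicate 1 and 7.02% were down without submergence replicate 1. Without control replicate 1, the share up in this class was thus below the 8.62% of the highest class.

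The definition of the classes also mattered. When genes were classed by their control level alone, 27.1% of the genes under 1 CPM per kb were upregulated and 5.78% downregulated, and in the highest class the shares were 1.9% and 24.9%. A gene placed by its control level can only leave the lowest class upwards and the highest class downwards, so part of this contrast is fixed by the definition. The sizes of the changes shrank with abundance as well. The median log2 fold change of upregulated genes was 3.49 in the lowest class, 2.79 and 2.17 in the next ones and 1.96 to 2.20 above 16 CPM per kb, and that of downregulated genes went from -2.76 in the lowest class to -1.71 in the highest. The standard error fell by class too, from a median of 0.45 under 1 CPM per kb to 0.12 to 0.14 above 4 CPM per kb, so that only large changes could be called among rare transcripts. Against no change, 49.8% of the lowest class and 77.6% of the highest were called.

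**Figure D3:**
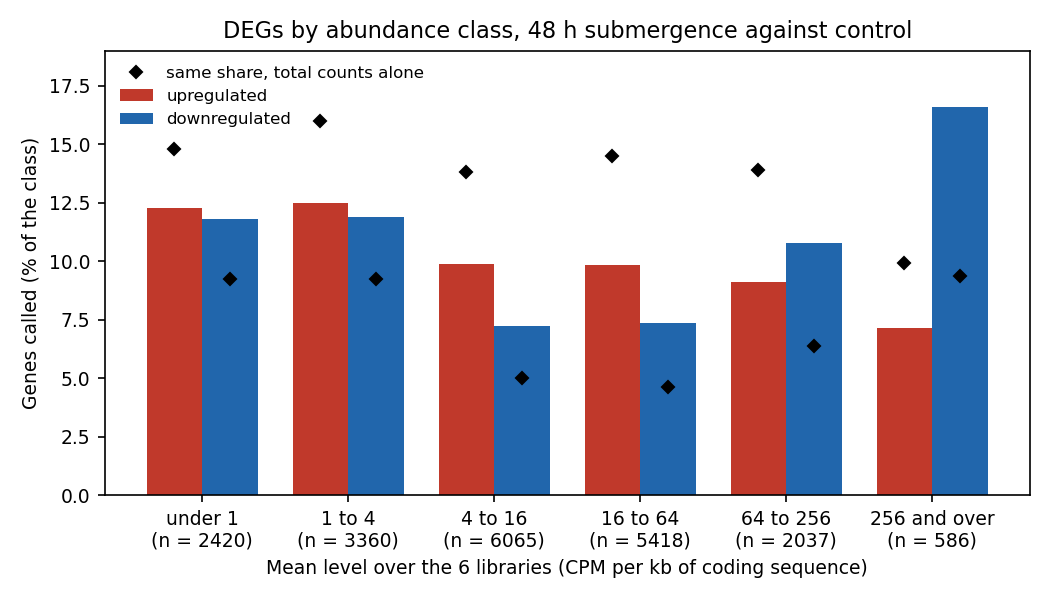
Percentage of genes called upregulated (red bars) and downregulated (blue bars) in each class of mean level in CPM per kb of coding sequence (x axis, with the number of genes tested). Black diamonds give the same percentages with total counts alone in place of TMM, under which the 16.6% downregulated in the highest class becomes 9.39% and the 7.17% upregulated becomes 9.91%.

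In terms of rank, 12529 genes (63%) stayed in their abundance class, 484 rose by at least 2 classes and 356 fell by at least 2. Of the 100 genes with the highest level per kb over both groups, 16 were downregulated and 5 upregulated by edgeR's test against the threshold, where 9.26% and 10.5% of all tested genes were. Ranking by 1 group alone favours changes away from that group's high level. Of the 100 highest in controls, 26 were downregulated and 0 upregulated. Of the 100 highest in submerged leaves, 15 were upregulated and 10 downregulated, and 76 genes were in both of the last lists. Upregulated, downregulated and all tested genes had median coding lengths of 1047, 1059 and 1128 bases.

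At the other end, many DEGs were close to absent in 1 of the groups. Control leaves held 0 counts for 47 upregulated genes, and submerged leaves held 0 counts for 19 downregulated genes. With a floor of 3 counts over the group of 3 libraries, which corresponds to 0.0294 CPM in controls and 0.033 CPM in submerged leaves, the 47 genes were at least 6.73-fold to 355-fold higher (median bound 25.4) and the 19 genes at least 6.54-fold to 338-fold lower (median bound 57.9). A mean under 1 CPM was found in controls for 775 upregulated genes (37.3%) and in submerged leaves for 666 downregulated genes (36.2%). Setting the genes with 0 counts to their bounds left the medians of the called genes at 2.39 and -2.18. This was fixed in advance, since every bound lies beyond these medians.

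The genes with the largest fold changes that reached a mean of 1 CPM are described next. Genes were named only if they were called and their groups did not overlap, so the separation of the groups below was fixed by the choice. In most of them 1 group was at or near 0, so their folds rest on a handful of counts. Leaving out a library of the group with 0 counts lowers a bound only because the floor is then spread over fewer reads: without control replicate 2 or 3 the bounds of upregulated genes, and ratios where that library held no count, were 1.52 times lower, and without submergence replicate 1 or 3 those of downregulated genes were 1.52 and 1.6 times lower, respectively.

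Roisl.0007s0495 (OG0006438) was at 0.0309, 0 and 0 CPM in the 3 controls and at 29.1, 74.5 and 53.6 CPM in the 3 submerged libraries. This was 1 count against 4636, a ratio of 5202 with a 95% counting interval of 933 to 206000. The gene was upregulated (adjusted p = 1.52e-07 by edgeR's quasi-likelihood test against the threshold), and without control replicate 1, which held the single count, it was at least 1183-fold higher. Roisl.0018s0124 (OG0016626) was at 0, 0.0576 and 0 CPM in controls and at 36.8, 113 and 80.8 CPM after submergence. Its 2 counts against 6790 gave a ratio of 3809 (interval 1050 to 31500), and at least 1674-fold without control replicate 2. In both genes submerged replicate 1 was the lowest of its group.

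Roisl.0054s0002 (OG0019077), a short gene of 264 coding bases, had 0 counts in all controls and 7.56, 8.78 and 14.4 CPM in submerged leaves. It was at least 355-fold higher (adjusted p = 0.000114, edgeR). Roisl.0191s0288 (OG0006617) was at 0, 0.0288 and 0 CPM in controls and at 17.8, 13.4 and 13.1 CPM after submergence. Here 1 count stood against 1346, a ratio of 1510 (interval 271 to 59700), and the gene was at least 331.9-fold higher without control replicate 2. For all 4 of these genes the lowest submerged library lay far above the highest control.

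The other leading genes held 4 and 99 counts over the 3 controls, respectively. Roisl.0019s0590 (OG0011993) was at 0, 0.0864 and 0.0288 CPM in controls and at 53.2, 79.5 and 68.3 CPM in submerged leaves. The gene was 1745-fold higher, a ratio that rests on its 4 control counts. Its log2 fold change was 10.60 (SE 0.58), and 11.79 without control replicate 2. Roisl.0007s0177 (OG0011516) combined a large fold with a high final level, from 1.39, 0.518 and 1.04 CPM in controls to 956, 932 and 1379 CPM after submergence. This was a 1110-fold rise (log2 fold change 10.12, SE 0.47, adjusted p = 4.83e-08 by edgeR's quasi-likelihood test), and per kb its level went from 2.75 to 3050 CPM, from the class of 1 to 4 into the highest class.

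Roisl.0024s0662 (OG0014875), named for the largest rise in the second highest abundance class, had the smallest SE of the upregulated named genes. It was at 0.339, 0.403 and 0.345 CPM in controls and at 91.1, 88.9 and 115 CPM in submerged leaves, 271-fold higher with a log2 fold change of 8.07 (SE 0.19). The groups lay far apart in all of these genes, and 9 genes in all rose by 4 abundance classes. Among the latter, Roisl.0001s0198 (OG0016920) went from 1.67 to 402 CPM per kb and Roisl.0115s0364 (OG0013054) from 0.153 to 88.4 CPM per kb.

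The leading downregulated genes had 0 or few counts after submergence. Roisl.0011s0563 (OG0021660) was at 12.5, 15.0 and 6.1 CPM in controls and had 0 counts in all submerged libraries, and was at least 338-fold lower (adjusted p = 1.66e-05, edgeR). Roisl.0213s0518 (OG0002256) was at 24.6, 71.3 and 29.5 CPM in controls and at 0, 0 and 0.0293 CPM in submerged leaves. Its 4301 counts stood against 1, a ratio of 3833 (interval 688 to 151000), and 2466 without control replicate 2, its highest library. Without submergence replicate 3, which held the single count, it was at least 798.1-fold lower.

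Roisl.0082s0230 (OG0009170) was at 7.68, 14.4 and 6.39 CPM in controls and at 0 counts after submergence, at least 288-fold lower. Roisl.0053s0110 (OG0025418) went from 2.96, 3.8 and 3.97 CPM to 0 counts, at least 109-fold lower. Roisl.0016s0284 (OG0012759) did so from 1.82, 3.25 and 2.56 CPM, at least 77.5-fold lower. Each was downregulated, with adjusted p-values of 1.71e-05, 3.08e-06 and 1.58e-05 by edgeR's quasi-likelihood test.

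Further downregulated genes fell from high levels. Roisl.0115s0285 (OG0004895) was at 188.7, 451.9 and 180 CPM in controls and at 0.16, 0.118 and 0.733 CPM in submerged leaves, and its level per kb fell from 257 to 0.317 CPM, the only gene of the 19886 to drop by 5 abundance classes. The fall was 811.5-fold by the mean, with a log2 fold change of -9.56 (SE 0.57), and -10.88 without submergence replicate 3, its highest submerged library. Roisl.0007s0125 (OG0006501) was at 561, 398 and 643 CPM in controls and at 7.66, 7.64 and 9.07 CPM after submergence, 65.8-fold lower with a log2 fold change of -6.04 (SE 0.24). Both genes were called by edgeR against the threshold, with adjusted p-values of 2.51e-07 and 2.22e-08, and in both the groups were far apart.

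**Figure D4:**
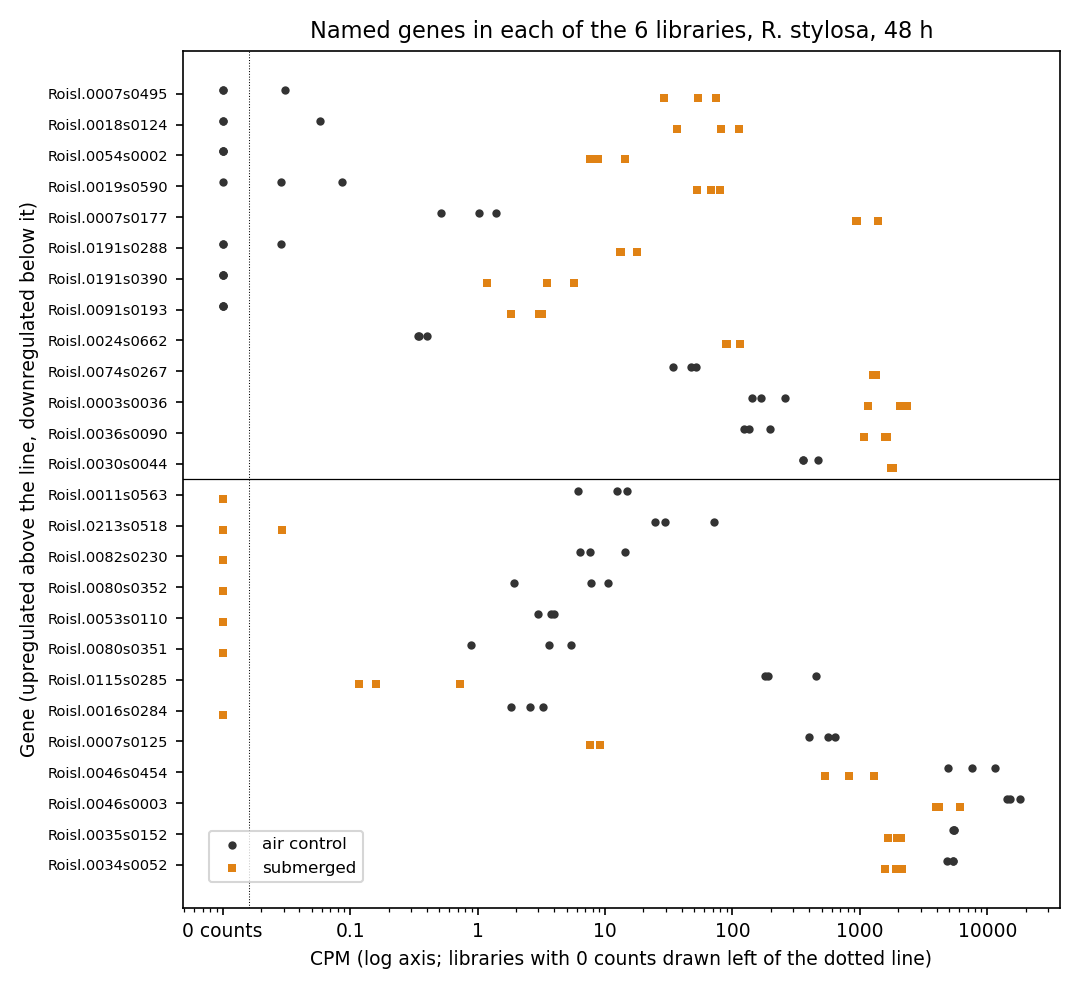
CPM on a log axis (x) of the 26 named genes (y) in the 3 control libraries (dark circles) and the 3 submerged libraries (orange squares), upregulated genes above the horizontal line and downregulated genes below it. Libraries with 0 counts are drawn left of the dotted line. In every gene the 3 squares and the 3 circles do not overlap, which was a condition for naming it.

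Judged by CPM gained instead of by fold, other called genes led. Roisl.0003s0036 (OG0003384) gained 1666 CPM, from 167, 142 and 258 CPM in controls to 1165, 2047 and 2352 CPM after submergence. Its log2 fold change was 3.30 (SE 0.42), with an adjusted p of 0.000261 by edgeR's quasi-likelihood test. Roisl.0030s0044 (OG0000001) gained 1401 CPM, from 468, 358 and 358 CPM to 1757, 1809 and 1822 CPM, a 4.55-fold rise with closely grouped replicates (log2 fold change 2.19, SE 0.20). It was the only called gene of the 3 tested in its orthogroup. The others stood at a log2 fold change of 0.72 (Roisl.0082s0295, itself at 1501 CPM per kb in controls) and 0.31 (Roisl.0012s0265). Roisl.0082s0295 was not called and so not ranked, although its mean went from 2062 to 3398 CPM with groups that did not overlap.

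Roisl.0036s0090 (OG0014592) gained 1279 CPM, from 123, 136 and 197 CPM to 1568.5, 1637 and 1087 CPM, with a log2 fold change of 3.24 (SE 0.37). Roisl.0074s0267 (OG0008451) gained 1262 CPM, from 47.4, 51.9 and 34.3 CPM to 1317, 1342 and 1262 CPM. This was a 29.3-fold rise (log2 fold change 4.87, SE 0.20, adjusted p = 3.07e-08 by edgeR's quasi-likelihood test). Among called genes, the 4 with the largest gains thus rose by between 4.55-fold and 29.3-fold, from control levels of 61.1 to 287 CPM per kb. Since a call requires a change beyond 2-fold, abundant genes with smaller folds were left out of this ranking.

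Among called genes, the largest losses came from genes that were among the most abundant in air, with folds from 2.76 to 9.05. Roisl.0046s0003 (OG0000070) lost 11060 CPM, from 15118, 14303 and 18022 CPM in controls to 3927, 6157 and 4194 CPM in submerged leaves. This was 3.32-fold lower (log2 fold change -1.73, SE 0.22, adjusted p = 0.00412 by edgeR's quasi-likelihood test). The other gene of its orthogroup, Roisl.0024s0094, was also abundant, at 18217, 15577 and 18938 CPM in controls and at 8483, 13077 and 9188 CPM after submergence. Its groups did not overlap, but its log2 fold change of -0.78 (SE 0.20) did not pass the threshold test. It was therefore not ranked, although its mean fell from 17577 to 10249 CPM. Both genes have 546 coding bases, and how kallisto divided reads between them cannot be checked in the count table.

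Roisl.0046s0454 (OG0000062) lost 7114 CPM, from 7594, 4893 and 11503 CPM in controls to 537, 1294 and 819 CPM, 9.05-fold lower (log2 fold change -3.18, SE 0.37). Roisl.0035s0152 (OG0004700) lost 3552 CPM, from 5455, 5424 and 5477 CPM to 1940.5, 2091 and 1668 CPM, 2.87-fold lower (log2 fold change -1.52, SE 0.12). The 3 controls of this gene were nearly equal. Roisl.0034s0052 (OG0001209) lost 3303 CPM, from 4799.5, 5380 and 5372 CPM to 1909, 2144 and 1587 CPM, with a log2 fold change of -1.46 (SE 0.16). This call was lost with total counts alone (log2 fold change -1.18, adjusted p = 0.118, edgeR), the only change of call among the named genes under 19 alternatives.

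Called genes were spread over many orthogroups. The 19886 genes tested belonged to 18204 orthogroups, of which 3676 held at least 1 called gene, 188 held 2 or more and 15 held calls in both directions. Genes that were alone in their orthogroup were called in 19.3% of cases, and those of orthogroups with 2 genes in 19.5%. In orthogroups of 3 to 5 genes 28.7% were called, with 18.2% up and 10.5% down, and in those of 6 to 10 genes 25.1%. Orthogroups of more than 10 genes had 10.6% up and 0.709% down among 141 tested genes. Genes of 1 orthogroup can share reads and are not independent, so these shares were not tested. The table also marks orthogroups as universal or not, without saying over which species. Genes of universal orthogroups had 9.99% up and 9.36% down of 18424, and the 1462 others had 16.3% up and 7.93% down, at median levels of 12.3 and 1.24 CPM per kb.

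Several orthogroups had all tested genes called in the same direction, where 19.7% of all tested genes were called. OG0000023 and OG0000035 were picked for the largest share called, so this was fixed by the choice. Others were also called in full, such as OG0000050 and OG0000297 with 4 of 4 tested genes each, and ties went to the lower identifier. All 4 tested genes of OG0000023 were downregulated, with consecutive identifiers. Roisl.0046s0155 was at 620, 798 and 638 CPM in controls and at 38.9, 52.4 and 19.7 CPM in submerged leaves (log2 fold change -4.21, SE 0.31). For Roisl.0046s0153, Roisl.0046s0154 and Roisl.0046s0156 the log2 fold changes were -4.54, -4.46 and -3.96. In each of the 4, submergence replicate 3 was the lowest library, and all 3 submerged libraries lay below all controls.

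OG0000334 had 3 genes, all downregulated to 0 counts in every submerged library. Roisl.0080s0352 was at 1.94, 10.6 and 7.71 CPM in controls (at least 207-fold lower), Roisl.0080s0351 at 0.895, 5.41 and 3.65 CPM (at least 102-fold lower) and Roisl.0080s0350 at 0.432, 4.18 and 3.05 CPM (at least 78.7-fold lower). In all 3 genes control replicate 1 was the lowest control, several times below the others. Their control profiles ran in parallel, and shared reads were not examined.

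Upregulated throughout was OG0000035, with 5 of 5 tested genes called and 6 in the table. The 5 genes reached between 0.413 and 4.42 CPM per kb after submergence, and their log2 fold changes were 1.98 to 2.74. Roisl.0005s0129, the most abundant, was at 2.99, 4.38 and 4.54 CPM in controls and at 14.9, 15.4 and 20.3 CPM after submergence. Roisl.0005s0157, the weakest (log2 fold change 1.98), lost its call with DESeq2 (adjusted p = 0.272), with thinned libraries and without control replicate 2 or submergence replicate 1 or 2.

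All 4 genes of OG0000124 were also upregulated. Roisl.0091s0193 had 0 counts in controls and 3.04, 1.84 and 3.2 CPM in submerged leaves, and was at least 93.9-fold higher. Roisl.0091s0190, Roisl.0091s0191 and Roisl.0091s0192 had log2 fold changes of 3.50, 4.38 and 3.80. OG0002676 had 3 genes in the table, of which 1 was not tested and 2 were upregulated. Roisl.0191s0390 had 0 counts in controls and 1.19, 5.72 and 3.49 CPM after submergence (at least 113-fold higher). Roisl.0191s0389 had 0 counts in controls and 0.737, 4.47 and 2.58 CPM (at least 84.2-fold higher). In both upregulated genes of OG0002676 submergence replicate 1 was well below the other submerged libraries.

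OG0000110 was split, with 2 genes up and 4 down of 7 tested. The downregulated genes carry consecutive identifiers, Roisl.0052s0059 to Roisl.0052s0062, with log2 fold changes of -2.56, -2.25, -2.50 and -2.22. Roisl.0210s1766 was upregulated, from 2.56, 3.25 and 4.23 CPM to 10.1, 10.5 and 10.9 CPM (log2 fold change 1.64), as was Roisl.0013s0009 (1.64). Both upregulated genes lost their call with DESeq2 (adjusted p = 0.0766 and 0.164), and Roisl.0210s1766 also without control replicate 1 (adjusted p = 0.0548, edgeR).

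In OG0000012, 4 of 6 tested genes were downregulated, all at low levels. Roisl.0213s0203 went from 3.36, 2.48 and 3.16 CPM to 0.256, 0.235 and 0.381 CPM (log2 fold change -3.33). Roisl.0213s0204 and Roisl.0213s0206 had the same counts in all 12 libraries, so their calls (log2 fold change -2.18) cannot be counted as separate genes. Such identical profiles occurred in 28 tested genes, of which 10 were called. The fourth, Roisl.0213s0196 (log2 fold change -2.28), was not called by DESeq2 (adjusted p = 0.119). With counts summed per orthogroup, 1860 of 18242 orthogroups were upregulated and 1654 downregulated, of which 3504 also held a called gene and 10 were called only as a sum.

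Set beside the first harvest, the 48 h response held most of the genes called at 24 h. At 24 h 1545 genes were upregulated and 978 downregulated, against separate control libraries. Of these, 1411 were also upregulated at 48 h (91.3% of the 24 h genes and 67.9% of the 48 h genes) and 915 also downregulated (93.6% and 49.7%). No gene was called in opposite directions. Across genes, the log2 fold changes at both times had a Pearson correlation of 0.933 and a Spearman correlation of 0.922 over 19886 genes, which are not independent replicates. The SD of the log2 fold changes was 1.32 at 24 h and 1.56 at 48 h.

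Estimates tended to be larger at the later time. Of the genes upregulated at 24 h, 963 (62.3%) had a larger estimate at 48 h, and the median went from 2.46 to 2.61. Of those downregulated at 24 h, 696 (71.2%) were further down at 48 h, with medians of -2.28 and -2.64. The 668 genes called up only at 48 h had a median log2 fold change of 1.79 then and of 1.22 at 24 h, and the 926 called down only at 48 h had medians of -1.80 and -1.11. Being called at 1 time only did not show that the times differed. In the direct test of the difference, by an interaction term in edgeR, 0 genes passed the threshold of 1 in either direction (211 at an unadjusted p under 0.05, and 1 gene by DESeq2). Against no difference, 6 genes (0.0302%) passed, all with lower values at 48 h, where DESeq2 gave 104 higher and 278 lower.

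All 6 genes were downregulated at 48 h. Roisl.0017s0477 (OG0012476) was at 344, 410 and 298 CPM in controls and at 4.39, 2.39 and 4.99 CPM in submerged leaves at 48 h, with a log2 fold change of -6.47 then and -3.62 at 24 h. Roisl.0075s0088 (OG0001605) was at 785, 957 and 729 CPM in controls and at 14.8, 14.4 and 17.7 CPM after 48 h of submergence, with log2 fold changes of -5.72 and -3.31. Roisl.0016s0254 (OG0004738) went from 64, 80.3 and 68.3 CPM to 3.88, 3.88 and 4.28 CPM, with log2 fold changes of -4.14 and -2.35. In Roisl.0001s0470 (OG0009774) and Roisl.0091s0690 (OG0009329) the log2 fold change was -6.92 and -7.94 at 48 h and -4.13 and -6.06 at 24 h.

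The sixth gene, Roisl.0210s1925 (OG0014347), was called down at 48 h only. It was at 202, 197 and 200.2 CPM in controls and at 79, 81.5 and 77.2 CPM in submerged leaves at 48 h, with a log2 fold change of -1.33 (SE 0.08) and of -0.46 at 24 h. Its 48 h call was lost with total counts alone (log2 fold change -1.05). Of the 6 time differences only that of Roisl.0016s0254 was kept without each of the 12 *R. stylosa* libraries in turn.

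**Figure D5:**
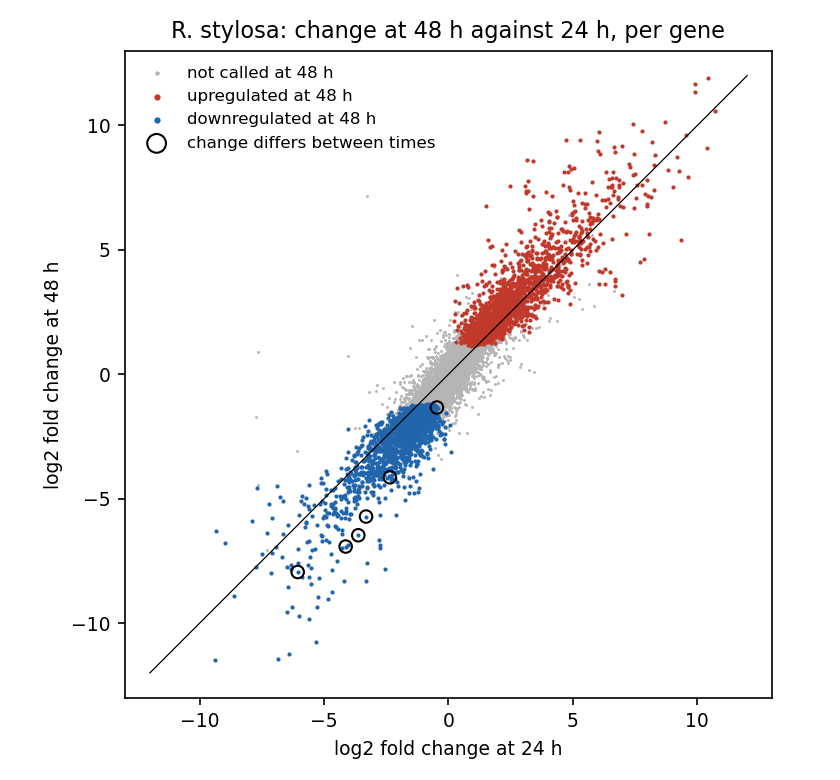
Log2 fold change at 48 h (y axis) against that at 24 h (x axis) for each gene tested, with genes upregulated (red) and downregulated (blue) at 48 h. The diagonal marks equal changes, and black circles mark the 6 genes whose change differed between the times against no difference, all of them below the diagonal.

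In the tolerant *R. islandica* under the same treatment, 2583 genes were upregulated and 2781 downregulated at 48 h, by edgeR in the same way. The lists shared 1190 upregulated genes (57.2% of those of *R. stylosa* and 46.1% of those of *R. islandica*) and 1059 downregulated genes (57.5% and 38.1%). These shares count genes not tested in the other species, which could not be shared. Of the *R. stylosa* genes, 1864 of 2079 upregulated and 1706 of 1841 downregulated were tested in *R. islandica*. Of the genes upregulated in *R. islandica*, 2279 were tested in *R. stylosa*, and 2102 (92.2%) of these had a positive estimate there, with a median log2 fold change of 1.47 against 2.14 in *R. islandica*. Of its downregulated genes, 2509 were tested in *R. stylosa* and 2258 (90%) were negative, with medians of -1.23 and -2.19. Genes picked for a large change in 1 species tend to have a smaller estimate in the other, so these medians are a description.

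The difference between the species was tested as an interaction over 22226 genes. Here 1837 genes (8.27%) passed the threshold, 1115 with a higher and 722 with a lower response in *R. stylosa*. This test was not run with total counts alone, so whether this balance depends on that scaling was not tested. Of the 1115, 353 were upregulated in *R. stylosa* and 647 were downregulated in *R. islandica*. Of the 722, 224 were downregulated in *R. stylosa* and 397 were upregulated in *R. islandica*. Of the 26 named genes, 5 were among them. Roisl.0074s0267, the only one of these without a group at 0 counts, had a log2 fold change of 4.87 in *R. stylosa* and 2.80 in *R. islandica*. Roisl.0016s0284, with 0 counts in submerged *R. stylosa*, was at 897, 1161 and 1027 counts in controls and at 1602, 2203 and 1980 counts in submerged *R. islandica* at 48 h.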

How the data were processed

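RNA-seq of young leaves was analysed in 12 *R. stylosa* and 12 *R. islandica* libraries, of which the 6 *R. stylosa* libraries at 48 h are described. The authors selected polyadenylated RNA, sequenced paired ends, checked reads with FastQC 0.12.0 and ran kallisto on each library against the *R. islandica* transcripts, for both species. The deposited tables hold kallisto's expected counts (estimated counts) per transcript, without normalization, beside orthogroup and coding length, a further deposited quantity in bases. kallisto divides a read among the transcripts it matches, so 11.8% of values were not whole (no tolerance), and related genes can borrow counts from each other. Columns carry 1 or 2, read as 24 and 48 h, and a Roman numeral, read as the replicate. No column of a sample outside the series was present.

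Counts of 32703 transcripts were summed over isoforms to 30646 genes (1699 with more than 1 isoform) and rounded. The main test used all 12 *R. stylosa* libraries in edgeR 4.0.16 (R 4.3.3): filterByExpr, TMM, glmQLFit and glmTreat at a log2 fold change of 1, Benjamini-Hochberg adjusted p under 0.05, and glmQLFTest against no change. SE was the absolute log2 fold change over the root of F. Differences between times and species were interaction terms. CPM were computed on the TMM-scaled library size, with a prior count of 2 on the log2 scale. Counting intervals at 95% are exact binomial, and these and floors cover counting error only. The script recovered most changes simulated for a small set of well-counted genes, equal in number up and down, in counts drawn at these libraries' means. That setting does not cover changes as broad as these, the choice of scaling or genes near 0 counts. Replicate numbers were tested as pairs and not used as such. Alternatives were DESeq2 1.42.0, its size factors in edgeR, no filter, a threshold applied after the test, a replicate block, thinning to the smallest total, the 6 libraries alone, total counts alone, other class definitions, counts per orthogroup, a prior of 0.5 and leaving out each library. Total counts alone was not run for the difference between species.

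Named genes were, among called genes whose groups do not overlap, the 6 with the largest change in each direction at a mean of at least 1 CPM, the 4 with the largest gain and loss of CPM, the largest change in each direction per abundance class, and the orthogroups with most calls, the largest share called or calls in both directions. Other genes of their orthogroups, the 6 genes that differed between times and the genes that moved by 4 or more classes are given as well. The comparison, the rule and the lists were chosen with earlier results of these data known. Lists of low-oxygen, starvation, ethylene, photosynthesis, carbonic anhydrase, cell cycle and cell type marker genes could not be applied, since identifiers are not paired with names here.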

Additional observations from a re-analysis of the deposited data

Results flagged for a closer look

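The response at 48 h differed between the species, by an interaction term in edgeR against a log2 threshold of 1, in 1115 genes with a higher and 722 genes with a lower value in *R. stylosa*. Of the named genes, 5 were among them. The difference, as the log2 fold change in *R. stylosa* minus that in *R. islandica*, was 2.08 for Roisl.0074s0267 (adjusted p = 0.000261, edgeR), -7.90 for Roisl.0082s0230 (adjusted p = 0.0293), -11.65 for Roisl.0080s0352 (adjusted p = 0.00048), -10.23 for Roisl.0016s0284 (adjusted p = 4.47e-07) and 8.09 for Roisl.0191s0390 (adjusted p = 0.0432). The last 4 have a group of *R. stylosa* with 0 counts, so the sizes depend on the fit's prior. Roisl.0082s0230 lost the call without *R. islandica* submergence replicate 2 or any of the 3 submerged *R. stylosa* libraries at 48 h (adjusted p up to 0.2005), and Roisl.0191s0390 lost it in 16 of the 24 runs that left out a library and with thinned libraries. Roisl.0080s0352 was at 222, 413 and 341 counts in controls and 976, 333 and 361 counts in submerged *R. islandica* at 48 h, which overlap.

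Between the times, the response was lower at 48 h than at 24 h against no difference in 6 genes, by the interaction term in edgeR. The differences were -2.79 for Roisl.0001s0470, -1.78 for Roisl.0016s0254, -2.84 for Roisl.0017s0477, -2.40 for Roisl.0075s0088, -1.89 for Roisl.0091s0690 and -0.87 for Roisl.0210s1925. Apart from that of Roisl.0016s0254, each lost its call in at least 6 of the alternatives.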

How the results depend on the processing

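The counts of genes up, down, higher and lower at 48 h stayed within 1.5 times of the reported ones under the alternatives run, except the threshold applied after the test. This gave 3231 genes up and 3121 down, 2483 responses higher and 1854 lower in *R. stylosa* than in *R. islandica*, and 5 lower at 48 h than at 24 h. DESeq2 gave 1626 up and 1367 down, 474 responses lower in *R. stylosa*, 1 lower at 48 h than at 24 h against the threshold, and 104 higher and 278 lower against no difference. No filter and total counts alone gave 1 higher against no difference each. Without each library in turn, the ranges were 1828 to 2139 up, 1532 to 1891 down, 6179 to 6813 higher and 5977 to 6557 lower against no change, 940 to 1144 and 601 to 750 between species, 0 to 0 between times against the threshold, and 0 to 33 higher and 1 to 158 lower between times against no difference. The widest of these, 33 and 158, came without 24 h control replicate 2. The cause was not tested in any case.

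Replicate numbers were not taken as pairs, since same-numbered deviations of control and submerged libraries at 48 h correlated at 0.139, 0.0782 and 0.0467, not all above 0.1. Each of these 6 libraries correlated best with its own number, a hint from the data. The study propagated the plants independently for each replicate, but the labels do not say that a number marks 1 propagation in both groups. Same-numbered 24 and 48 h libraries correlated at 0.273, 0.125 and 0.457 in controls and at 0.322, 0.0876 and 0.0021 after submergence. With the replicate block, 2169 genes were up and 1877 down, and 11 responses were lower at 48 h than at 24 h against no difference. The time call of Roisl.0001s0470 was then lost (adjusted p = 0.0682, edgeR) and a species difference of Roisl.0019s0590 was called (3.56, adjusted p = 0.00769). Over 26 named genes and 19 alternatives, 493 of 494 values kept their call and none reversed. These genes were picked for calls with large changes, which favours such stability, and some alternatives left out only a 24 h library. Over all genes given values, 1507 of 1518 values kept their call or lack of one, and 11 lost a call. Of 108 shares by abundance class, 97 stayed within 1.5 times. Precision was lowest below 1 CPM per kb, where the median SE of the log2 fold change was 0.45.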
